A study of Arabidopsis thaliana with 36 samples.

Results

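The apical region of FRI plants after 5 long days was compared with that of FRI plants after 3 long days, with 3 arrays for each day and thus 6 of the 36 arrays of the study. The arrays were chosen by line and by number of long days alone. FRI stands for plants of the Col background that carry the FRI allele of accession Sf-2, with no FLC mutation named in the labels. All 6 arrays come from soil-grown plants at 23 degrees Celsius that had been moved from short to long days, and all are labelled vegetative, with 10 to 18 leaves. Beside them, FRI flc-3 combines the same FRI allele with a fast-neutron allele of FLC, and flc-3 carries that mutant allele in Col without the FRI allele. Their arrays of days 5 and 3, also 3 per group, come from the same region and are labelled as plants in transition. FRI plants at 0 and 7 long days, again 3 arrays each and labelled vegetative, are given as the neighbouring days.

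FRI encodes an activator of FLC, and FLC is a MADS-box repressor that holds back the genes that start flowering in the leaf and at the shoot apex. In long days the leaf makes the mobile signal FT, which acts at the apex together with the bZIP factor FD and with MADS-box factors of floral promotion. A winter-annual plant with active FRI and FLC therefore stays vegetative for long, and the step studied here asks which transcripts moved over 2 further long days while such plants still grew leaves. The samples hold no plants left in short days for the same time, so 2 more long days and 2 days of added age cannot be told apart. The apical region holds the meristem with young leaves and stem, and in such bulk RNA fewer cells of a type and less RNA per cell cannot be told apart.

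Signals are MAS5 signals of ATH1 arrays with a common trimmed mean as deposited, and differences are given on the scale log2(signal + 16), day 5 minus day 3. Adding 16 damps the noise of dim probe sets and makes their differences smaller than the ratio of their signals. A probe set was called when limma's moderated test, fitted to all 36 arrays as 12 group means, gave a Benjamini-Hochberg adjusted p under 0.05. Median signals of the 6 arrays ran from 40.8 to 43.3. The correlation between arrays of one day was 0.989 to 0.990 at day 5 and 0.991 to 0.993 at day 3, against 0.982 to 0.987 between the days. The labels do not say whether the 3 arrays of a group came from separate pools of plants, so p-values measure the spread between these arrays only.

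Over the 2 days a moderate number of transcripts moved, nearly all of them by little. Of 14890 tested probe sets 1303 were called (8.75%), 692 higher and 611 lower at day 5. The 3 arrays of day 5 lay wholly above or wholly below those of day 3 in 1258 of the 1303. The calls were made from these same arrays, so this lack of overlap is no separate support for them. Only 13 of the called probe sets differed at least 2-fold, 9 of them higher and 4 lower, and 1162 differed by under 1.5-fold. Over the 8030 loci with a name, 332 were called higher (4.13%) and 264 lower (3.29%), and the median difference was 0.01. The count depends on single arrays: without day 3 replicate 1 it was 835.

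**Figure D1:**
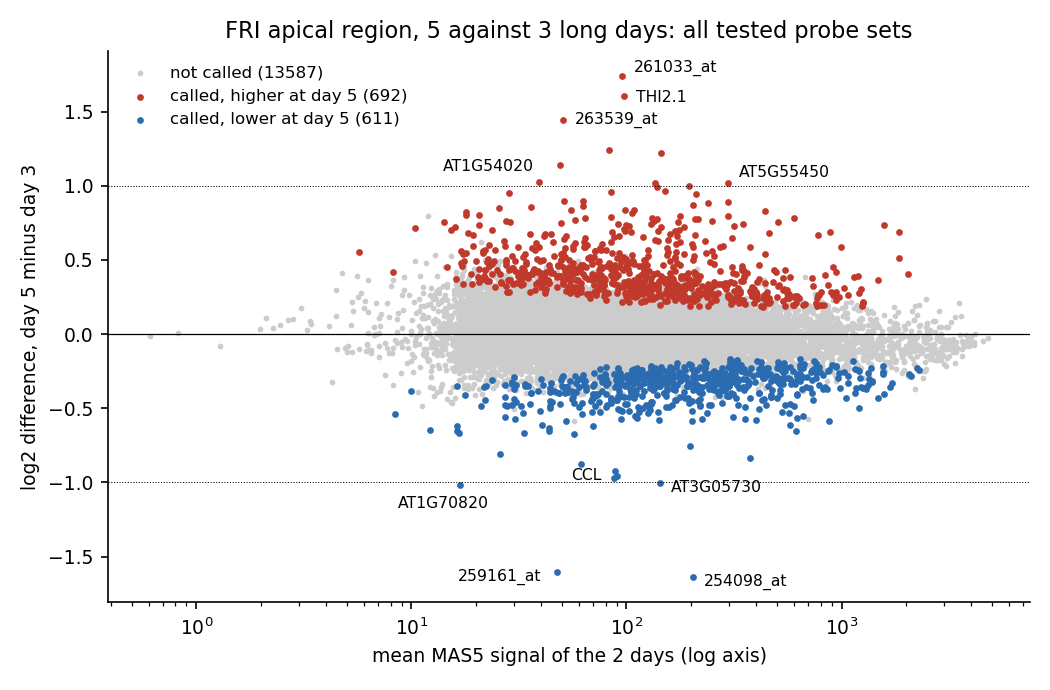
Log2 difference between day 5 and day 3 in FRI (y axis) against the mean MAS5 signal of both days (x axis, log scale) for 14890 probe sets, with called ones in colour and dotted lines at a 2-fold difference. The 692 called higher and the 611 called lower lie mostly within the dotted lines, and 13 lie outside them.

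The named loci that rose most were led by THI2.1, which encodes a thionin, a small antimicrobial protein induced by jasmonate. THI2.1 had signals of 157, 155 and 152 at day 5 and 43.0, 40.9 and 36.3 at day 3. Its difference was 1.61 ± 0.11 (SE, n = 3 arrays each, limma adjusted p = 4.4e-13). The arrays of the days did not overlap, which was a condition for naming a locus here. With 64 added in place of 16, 32 of the 78 called differences of named genes and probe sets moved by over 1.5 times, THI2.1 to 1.07, and all 32 were still called. THI2.1 was the only tested member of the jasmonate list, so its rise says nothing of that pathway as a whole. In FRI flc-3 its difference was 1.91 and in flc-3 1.33. Along the 4 days THI2.1 had mean signals of 12.3, 40.1, 155 and 228.3 at days 0, 3, 5 and 7. Of the probe sets without a gene name, 261033_at had the largest rise at 1.74 and 263539_at the next at 1.45. The first of them had 153, 149.5 and 163 at day 5 and 33.2, 31.6 and 41.0 at day 3, and the second 90.1, 72.4 and 81.5 at day 5 and 16.2, 25.9 and 17.5 at day 3.

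AT1G54020 had 63.4, 75.8 and 81.7 at day 5 and 21.1, 28.5 and 24.1 at day 3, a difference of 1.14 ± 0.10 (SE, limma adjusted p = 2.9e-10). AT1G65500 had 194, 188 and 179.8 at day 5 and 84.7, 80.2 and 88.1 at day 3, with 1.02 ± 0.07 (SE, adjusted p = 5.3e-12). AT5G55450 had 360.2, 396 and 451 at day 5 and 203.9, 194 and 173 at day 3 and rose by 1.02. In these 3 loci every array of day 5 stood above every array of day 3, as the rule for naming them required. The files give these loci no symbol, and no role is stated for them here. The serine carboxypeptidase-like gene scpl31 had 121, 121 and 149 at day 5 and 64.8, 67.2 and 65.3 at day 3, a difference of 0.84 ± 0.12 (SE, adjusted p = 8.8e-06). AT1G22490, which the annotation lists as the basic helix-loop-helix factor bHLH094, had 109, 100.4 and 124 at day 5 and 58.0, 53.7 and 60.6 at day 3 and rose by 0.79.

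The other 6 of the 12 named loci that rose most were AT1G04660 at 0.95, AT5G05960 at 0.90, AT4G18280 at 0.83, AT2G35430 at 0.82, AT2G19970 at 0.80 and AT4G21650 at 0.79. AT4G18280 had 141, 153 and 134 at day 5 and 67.0, 68.2 and 84.2 at day 3. AT5G05960 had 95.0, 74.4 and 90.8 at day 5 and 39.7, 41.9 and 35.2 at day 3, and AT4G21650 had 249, 222.5 and 218.4 at day 5 and 142, 119.8 and 116 at day 3. AT1G04660, AT2G35430 and AT2G19970 were dim, with mean signals of 41.9, 27.3 and 27.0 at day 5 and of 14.8, 8.53 and 8.82 at day 3. The call of AT2G35430 ended without day 3 replicate 1 or 3 or day 5 replicate 3 (limma adjusted p from 0.054 to 0.071).

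Among the loci that fell, AT1G70820 had 3.71, 6.39 and 7.03 at day 5 and 23.5, 30.4 and 30.2 at day 3, a difference of -1.02 ± 0.16 (SE, n = 3 arrays each, limma adjusted p = 2.2e-05). Its values at day 5 lay below the 40th percentile of their arrays, so the size of its fall depends on the number added: it was -2.14 with 1 and -0.40 with 64 in place of 16, called in both. AT3G05730 had 78.1, 90.2 and 102 at day 5 and 192, 197 and 199 at day 3, with -1.01 ± 0.07 (SE, adjusted p = 4.4e-13). CCL, known for a clock-controlled transcript of short half-life, had 57.0, 60.9 and 51.6 at day 5 and 124, 119 and 131 at day 3 and fell by 0.96 on the log2 scale (adjusted p = 3.0e-10). Time of day does not stand in the labels, so for CCL a change of level and one of daily timing cannot be told apart. GI, the clock gene of the photoperiod pathway, had 64.2, 62.9 and 55.0 at day 5 and 71.0, 63.7 and 59.9 at day 3, with a difference of -0.08 ± 0.09 (SE, adjusted p = 0.69), and its arrays overlapped between the days.

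AT5G28500 had 199, 228.9 and 384 at day 5 and 488, 461 and 479.8 at day 3, with replicate 3 of day 5 nearer to those of day 3 than the other two. CYP71B26, a cytochrome P450, had 11.5, 11.1 and 4.73 at day 5 and 26.5, 26.6 and 17.5 at day 3, a difference of -0.66 ± 0.11 (SE, adjusted p = 9.8e-05). Of the 7 tested cytochromes of the CYP71B subfamily, a list made after the values had been seen, CYP71B26 and CYP71B34 were called lower and none higher (3.29% of all named loci were called lower), and CYP71B22 stood at 0.28 (adjusted p = 0.11). The call of CYP71B34 ended without any 1 of 5 of the 6 arrays, day 3 replicate 3 being the exception (adjusted p from 0.0501 to 0.18), and with no filter on dim probe sets (0.061). The other 7 of the 12 named loci that fell most were AT1G62780, AT1G33811, AT1G19690, AT3G09580, AT5G62210, AT5G20050 and AT3G22210, with differences from -0.67 to -0.58. The unnamed probe sets 254098_at and 259161_at fell further, by 1.64 and 1.61 on the log2 scale. The first had 84.7, 92.7 and 95.4 at day 5 and 319, 309.6 and 322 at day 3, and the second had 11.7, 17.5 and 17.7 at day 5 and 78.8, 85.2 and 75.6 at day 3.

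**Figure D2:**
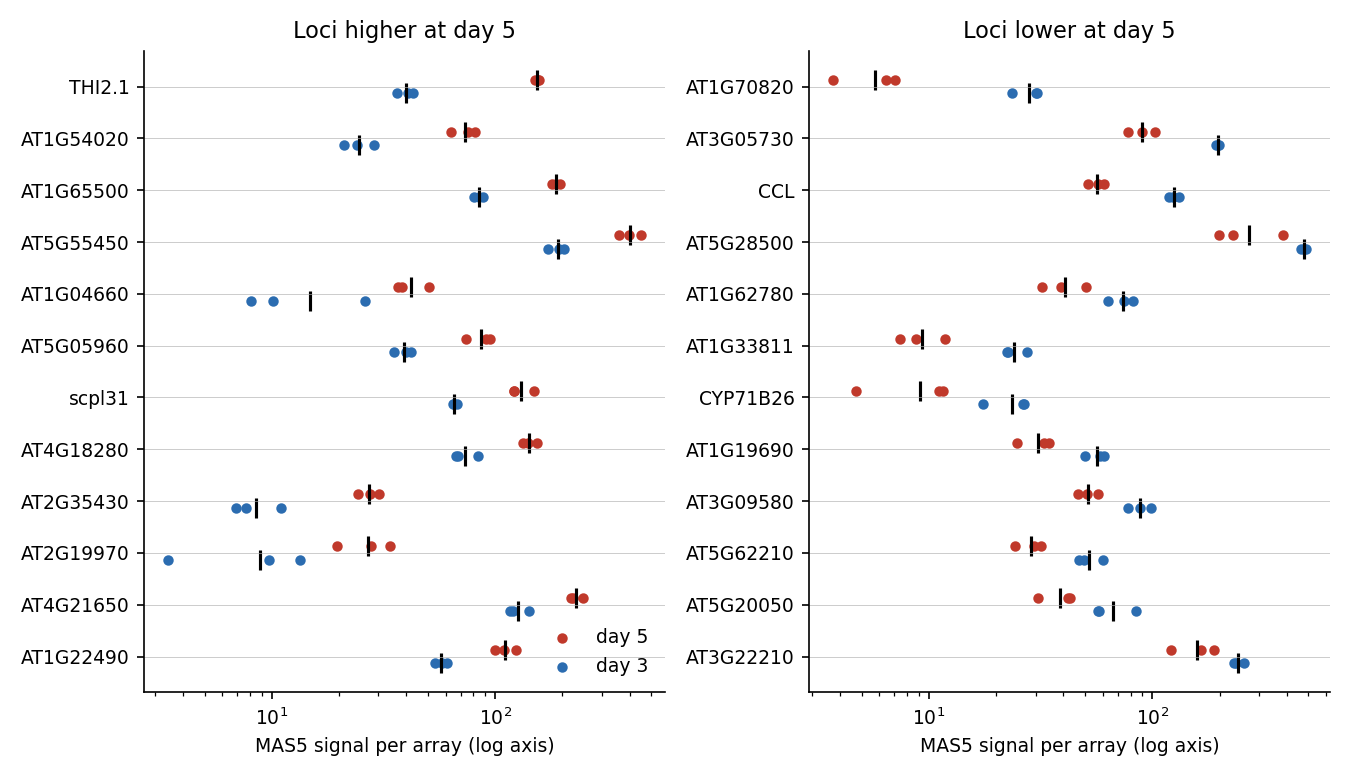
MAS5 signals per array (x axis, log scale) for the 12 named loci that rose most (left) and the 12 that fell most (right), with day 5 in red above day 3 in blue and the mean of 3 arrays as a tick. In each of the 24 loci the arrays of the 2 days do not overlap, as the rule for naming them required.

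The neighbouring days place this step in the course of the FRI line, sharing the day 3 arrays or the day 5 arrays with it. Between days 0 and 3, 2020 probe sets were called (13.6%), and between days 5 and 7, 397 (2.67%). Of the 12 loci named as rising, 5 were called higher and 1 lower from day 0 to day 3, and 1 was called higher and 4 lower from day 5 to day 7. AT1G65500, scpl31, AT4G18280 and AT4G21650 were the 4 called lower by day 7. The loci were chosen by arrays of days 3 and 5 that the neighbouring steps share. These counts are therefore not independent of that choice and give no support for a peak at day 5. AT1G65500 had means of 48.0, 84.3, 188 and 93.4 at days 0, 3, 5 and 7. AT4G18280 had 58.3, 73.2, 143 and 80.6, and scpl31 had 58.8, 65.8, 130.4 and 75.5. AT5G55450 had 47.3, 190.5, 403 and 453, and day 7 against day 5 was not called for it (limma adjusted p = 0.46).

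Of the 12 loci named as falling, 4 were called lower and 1 higher from day 0 to day 3, and 2 were called higher from day 5 to day 7. Shared arrays tie these counts to the choice of the loci in the same way. AT1G70820 had means of 82.9, 28.0, 5.71 and 6.72 at days 0, 3, 5 and 7, and CYP71B26 had 109.6, 23.5, 9.14 and 17.4. CCL had 322, 125, 56.5 and 104, so its lowest mean was at day 5. AT3G05730 had 216.5, 196, 90.2 and 95.7.

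**Figure D3:**
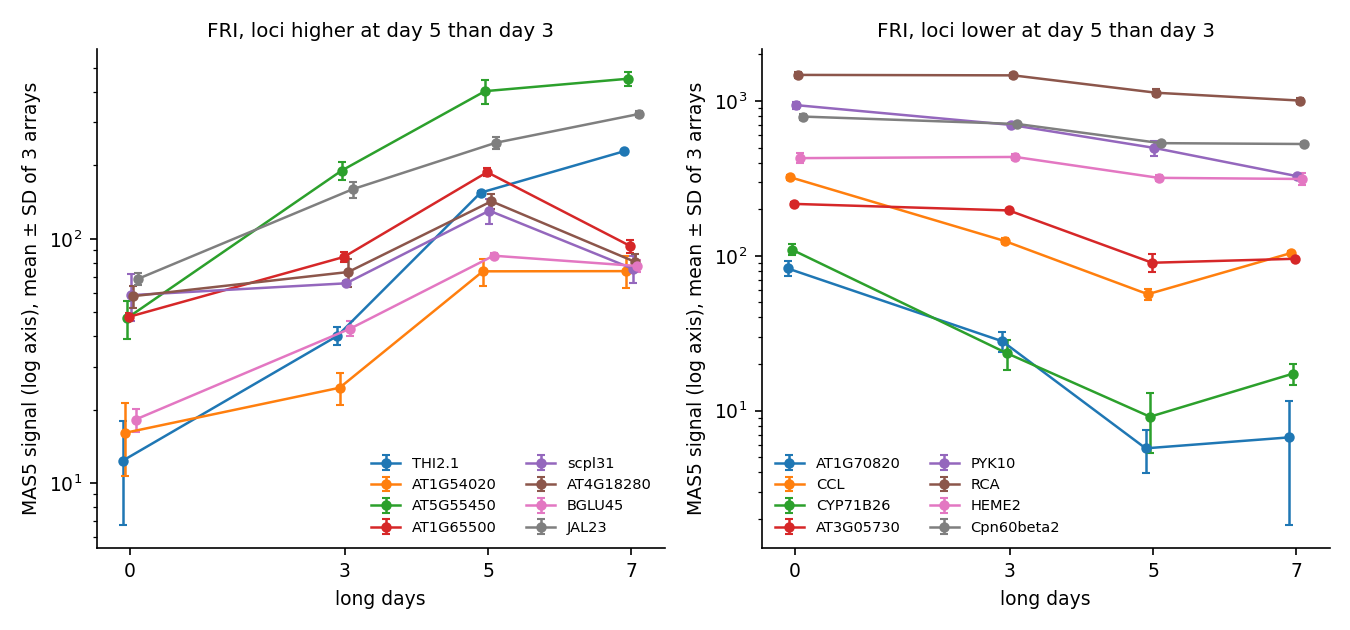
Mean MAS5 signal with SD of 3 arrays (y axis, log scale) at 0, 3, 5 and 7 long days (x axis) in FRI, for 8 loci called higher at day 5 than at day 3 (left) and 8 called lower (right). THI2.1 climbs throughout, AT1G65500, scpl31 and AT4G18280 peak at day 5, and CCL is lowest at day 5.

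Nuclear genes of photosynthesis that changed were all lower, each by little. Of 12 tested nuclear genes of photosynthesis, 6 were called lower and none higher (3.29% of all named loci were called lower), with a median difference of -0.23 against 0.01 over all named loci. RCA, the rubisco activase, had 1193, 1113 and 1085 at day 5 and 1409, 1461 and 1522 at day 3, a difference of -0.37 ± 0.07 (SE, n = 3 arrays each, limma adjusted p = 2.1e-04). LHCB4.2, an antenna protein of photosystem II, had 1097, 1044 and 1150.2 at day 5 and 1301, 1299 and 1314 at day 3, with -0.25 ± 0.06 (adjusted p = 0.0032). PRK, the phosphoribulokinase of the Calvin cycle, stood at -0.28 ± 0.07, and the photosystem I subunits PSAN and PSAE-1 at -0.21 and -0.31. SBPASE, the sedoheptulose bisphosphatase, stood at -0.25. The call of PRK ended without day 3 replicate 2 (adjusted p = 0.052), that of PSAN without day 3 replicate 1 or 3 or day 5 replicate 1 or 2 (from 0.088 to 0.12), and that of PSAE-1 without any 1 of 5 arrays, day 5 replicate 3 being the exception (from 0.0504 to 0.23), or with no filter on dim probe sets (0.061). That of SBPASE ended without day 3 replicate 1 or day 5 replicate 1 or 2 (from 0.12 to 0.27), after quantile normalization (0.074), with no filter (0.052) and with no intensity trend in the prior (0.051). Leaving out single arrays gave 3 to 7 members called lower, with 3 without day 3 replicate 1 and 3 without day 5 replicate 2.

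Genes in the plastid's own genome did not pass the test. Of 20 tested genes of the photosystems none was called by limma (unadjusted p under 0.05 in 2), 18 lay below 0 and the median was -0.15. Of 15 tested plastid genes of ribosomal proteins none was called (unadjusted p under 0.05 in 3), 14 lay below 0 and the median was -0.19. The psbZ transcript, of a small subunit of photosystem II, had 1055, 1116 and 1199 at day 5 and 1311, 1397 and 1435 at day 3 (difference -0.30 ± 0.12, limma adjusted p = 0.15), and rpl22, of the large ribosomal subunit, had 1271, 1214 and 1148 at day 5 and 1343, 1481 and 1621 at day 3 (-0.28 ± 0.10, adjusted p = 0.063).

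Together these 12 nuclear and 20 plastid genes are the markers of photosynthetic leaf, of which 29 of 32 lay below 0. Their summed signal was 28374 to 33620.0 over the arrays of day 5 and 34320.4 to 36416 over those of day 3, and the lowest value of a nuclear member was 57.8, for LHCB4.3. This sum is made of the same genes as the results just given, so it is no separate measure of leaf tissue. The part of leaf tissue in the results on chloroplast genes was not tested.

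In lists put together after the values had been seen, which for that reason support nothing, the called genes of other chloroplast functions were lower too. Of 11 tested genes of tetrapyrrole and chlorophyll synthesis 6 were called lower and none higher (3.29% of all named loci were called lower), with a median of -0.26. HEME2, a uroporphyrinogen decarboxylase, had 323, 304 and 329.9 at day 5 and 456, 426 and 423 at day 3, a difference of -0.43 ± 0.07 (SE, limma adjusted p = 2.5e-05). CHLI2, a subunit of magnesium chelatase, had 108, 120.1 and 96.0 at day 5 and 165, 145 and 152 at day 3 and fell by 0.46. GSA1, the glutamate semialdehyde aminomutase that makes aminolevulinate, and HEMB1, which acts on aminolevulinate next, stood at -0.44 and -0.31. PORB, the light-dependent protochlorophyllide reductase, was at -0.11 (adjusted p = 0.59).

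The 6 tested genes of carbon fixation and photorespiration were all called lower, beside 3.29% of all named loci, RCA, PRK and SBPASE being among them. LrgB, a transporter of glycolate and glycerate in the chloroplast envelope, had 63.95, 66.7 and 62.5 at day 5 and 99.0, 93.4 and 99.0 at day 3, with -0.49 ± 0.07 (SE, limma adjusted p = 5.4e-06). HPR, the peroxisomal hydroxypyruvate reductase, had 321, 310.0 and 279 at day 5 and 389, 391.8 and 394 at day 3 and stood at -0.35. LSMT-L, a protein lysine methyltransferase of the chloroplast, stood at -0.34, and its call ended without any 1 of 5 arrays, day 5 replicate 2 being the exception (adjusted p from 0.052 to 0.13), and with no filter (0.059). With single arrays left out 4 or 5 of the 6 were called.

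Of 15 tested genes of gene expression and protein folding in organelles 9 were called lower and none higher, beside 3.29% of all named loci called lower, and 15 lay below 0. Cpn60beta2, a subunit of the chloroplast chaperonin, had 538, 545 and 519 at day 5 and 692, 725 and 714 at day 3, a difference of -0.40 ± 0.05 (SE, limma adjusted p = 3.6e-06). PDF1B, a peptide deformylase, had 106, 101 and 113 at day 5 and 164, 152 and 142 at day 3 and stood at -0.46. FUG1, a chloroplast translation initiation factor, stood at -0.28, and CAF1, which acts in the splicing of chloroplast introns, at -0.46. The call of CAF1 ended without day 3 replicate 1 (adjusted p = 0.0501), and with that array left out 5 members were called.

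**Figure D4:**
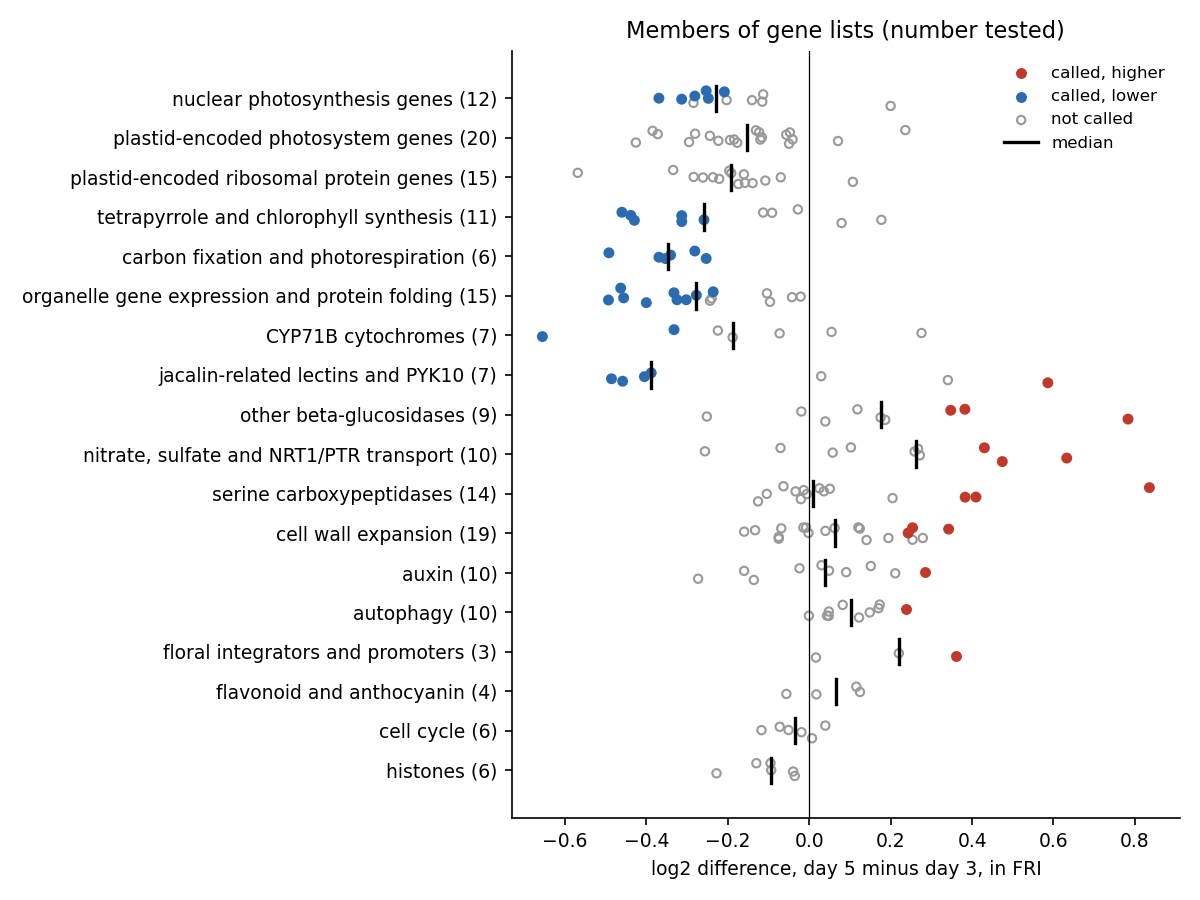
Log2 difference between day 5 and day 3 in FRI (x axis) for each tested member of 18 gene lists (y axis), filled where called, with the median of a list as a black bar. The called members of the chloroplast lists lie left of 0, and the called members of the beta-glucosidase, transport, carboxypeptidase and cell wall lists lie right of it.

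Genes of endoplasmic reticulum bodies, which store a beta-glucosidase for defence in Brassicaceae, went both ways. Of the 7 tested members of the list of jacalin-related lectins and PYK10, 4 were called lower and 1 higher, beside 3.29% and 4.13% of all named loci. PYK10, the beta-glucosidase itself, had 442, 551 and 499.6 at day 5 and 708, 713 and 681 at day 3, a difference of -0.49 ± 0.07 (SE, n = 3 arrays each, limma adjusted p = 1.5e-05). The lectins JAL22, JAL33 and JAL34 stood at -0.40, -0.46 and -0.39, and the call of JAL34 ended without day 3 replicate 2 or day 5 replicate 1 or 3 (adjusted p from 0.060 to 0.18). That of JAL33 ended with 1 added in place of 16, where its difference was -0.55 (adjusted p = 0.056). JAL23 was higher, with 242, 237.0 and 264 at day 5 and 148, 158 and 172 at day 3 and a difference of 0.59 ± 0.08 (adjusted p = 8.7e-06). NAI1, a bHLH factor that PYK10 expression requires, had 53.0, 53.7 and 52.4 at day 5 and 40.3, 40.1 and 35.3 at day 3, and its difference of 0.34 ± 0.13 did not pass (adjusted p = 0.096). NAI2, a protein of the bodies, stood at 0.03 (adjusted p = 0.89).

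Other beta-glucosidases had 3 of 9 tested members called higher and none lower, against 4.13% of all named loci. BGLU45, which acts on glucosides of monolignols, the building blocks of lignin, had 85.2, 87.6 and 83.1 at day 5 and 45.6, 43.5 and 39.7 at day 3, a difference of 0.78 ± 0.12 (SE, limma adjusted p = 1.4e-05). BGLU46, its close relative of like activity, had 53.8, 47.3 and 40.6 at day 5 and 35.9, 36.2 and 25.6 at day 3 and stood at 0.38, and BGLU40 stood at 0.35. The call of BGLU46 ended without day 3 replicate 3 or day 5 replicate 1 or 2 (adjusted p from 0.072 to 0.18) and with 1 added in place of 16 (0.053). That of BGLU40 ended without day 3 replicate 2 or day 5 replicate 2 (adjusted p = 0.067 and 0.14), its difference being 0.22 without the second of these arrays, where BGLU45 alone was called.

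Of the 10 tested members of the nitrate and sulfate list, 3 were called higher and none lower, beside 4.13% of all named loci called higher, and the median of the list was 0.26. The list holds 8 transporters of the NRT1/PTR family, among them the 3 called genes, and the ATP sulfurylases APS3 at -0.07 and APS4 at 0.26, neither of them called. GTR2, a transporter of glucosinolates, had 189, 216.1 and 172 at day 5 and 114, 110.2 and 130.4 at day 3, a difference of 0.63 ± 0.11 (SE, limma adjusted p = 2.1e-04). AT2G26690 (NPF6.2) had 293, 310.5 and 290.4 at day 5 and 235.6, 201 and 196 at day 3 and stood at 0.47 ± 0.06 (adjusted p = 1.4e-06). AT1G33440 (NPF4.4) stood at 0.43, and its call ended without day 5 replicate 2 (adjusted p = 0.051). GTR1, which transports glucosinolates together with GTR2, had 87.7 on average at day 5 and 70.1 at day 3, with 0.27 (adjusted p = 0.089). BCAT4, which starts the chain elongation of methionine in aliphatic glucosinolate synthesis, had 285, 286 and 293 at day 5 and 208.02, 206.4 and 253 at day 3 and rose by 0.35 ± 0.07 (SE, adjusted p = 0.0014), while GSTU20, a glutathione transferase of the same pathway, stood at 0.04 (adjusted p = 0.83).

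Of 14 tested serine carboxypeptidases, a list made after the values had been seen, scpl31, SCPL45 and SCPL49 were called higher and none lower, beside 4.13% of all named loci called higher. SCPL45 had 698, 657 and 615 at day 5 and 501, 508 and 489 at day 3, and SCPL49 had 341, 398 and 339 at day 5 and 281, 257 and 261 at day 3, with differences of 0.38 and 0.41. In both genes the days did not overlap.

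Of 19 tested genes of cell wall expansion 3 were called higher and none lower, beside 4.13% of all named loci called higher, with a median of 0.06. XTH16 and XTH32 encode xyloglucan endotransglucosylases, which cut and rejoin xyloglucan, and EXPA4 an expansin, which loosens walls. XTH16 had 376, 348 and 346 at day 5 and 275, 279.9 and 278 at day 3, a difference of 0.34 ± 0.06 (SE, limma adjusted p = 6.5e-05). XTH32 and EXPA4 stood at 0.25 and 0.24, and both calls ended without day 3 replicate 1 (adjusted p = 0.053 and 0.071). Without that array XTH16 alone was called.

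Of the 3 tested floral integrators and promoters, AGL42, a MADS-box gene that promotes flowering at the apex, was called higher (4.13% of all named loci were), with 23.9, 32.9 and 25.1 at day 5 and 18.1, 19.5 and 15.3 at day 3 and a difference of 0.36 ± 0.09 (SE, n = 3 arrays each, limma adjusted p = 0.0075). The call ended without day 3 replicate 3 or day 5 replicate 2 (adjusted p = 0.054 and 0.087). FD had 46.6, 31.5 and 38.9 at day 5 and 31.4, 26.6 and 35.2 at day 3, and AGL24, another MADS-box gene of floral promotion, 136, 199 and 186 at day 5 and 172, 174 and 163 at day 3. Their differences were 0.22 (adjusted p = 0.24) and 0.02 (adjusted p = 0.94), and the days overlapped in both. SMZ, an AP2-type floral repressor, stood at -0.04 (adjusted p = 0.86). Over days 0, 3, 5 and 7 AGL42 had means of 12.8, 17.6, 27.3 and 39.1.

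Of 10 tested auxin genes IAA18 alone, a repressor of auxin response, was called higher, beside 4.13% of all named loci. It stood at 0.28 ± 0.07, with 254, 269.5 and 243 at day 5 and 208.3, 212.2 and 199 at day 3 (SE, n = 3 arrays each, limma adjusted p = 0.0067). Of 4 tested gibberellin genes none was called by limma (unadjusted p under 0.05 in 1), and the receptor gene GID1B had 41.6, 36.2 and 39.7 at day 5 and 24.5, 33.4 and 28.8 at day 3, with 0.30 (adjusted p = 0.11). Of 10 tested autophagy genes ATG8F alone was called, at 0.24, beside 4.13% of all named loci called higher. The call of ATG8F ended without day 3 replicate 3 (limma adjusted p = 0.095). None was called among 6 cell cycle genes, 6 histone genes, 4 flavonoid genes and 4 genes of cold and dehydration, where limma's unadjusted p was under 0.05 for 0, 2, 0 and 1 members. Neither ARR15 nor RR16, of cytokinin response, nor EIN3 of ethylene, Hsp70-2 of heat shock, PYE of iron, BGLU33 of sugar starvation, UGT74B1 of indole glucosinolates or the nucleolar helicase PRH75 was called. DFR, the dihydroflavonol reductase of anthocyanin synthesis, stood at 0.02 and the dehydrin COR47 at -0.30 (adjusted p = 0.92 and 0.086).

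The labelled tissue could be checked through few genes, since most defining meristem genes are not analysed here. FLC itself is not analysed here either, so the labels of the lines were not checked through it. LAS, a GRAS factor of axillary meristem formation, had 45.9, 39.9 and 28.5 at day 5 and 26.9, 25.0 and 23.4 at day 3 and was called higher at 0.39. That call ended without any 1 of 5 arrays, day 5 replicate 3 being the exception (limma adjusted p from 0.061 to 0.23), after quantile normalization (0.052) and with no filter (0.058). CLV3, the peptide signal of stem cells, stood between 8.59 and 21.6 over the 6 arrays and UFO, of floral meristems, between 1.05 and 4.37, all below the 40th percentile of the arrays, which was 21.8 to 24.9. Of the epidermal markers, the stomatal lineage gene SPCH had 81.0, 70.7 and 64.6 at day 5 and 101, 88.8 and 82.2 at day 3 (difference -0.28, adjusted p = 0.17), and neither FMA at 0.12 nor TRY at 0.06 was called. The root markers EXPA7 and EXPA18 reached at most 4.05 and 15.6, the flower markers INO and SPL at most 18.3 and 4.02, and of 5 pollen markers AGL65 alone was tested, at 0.06 (adjusted p = 0.81).

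Some further called genes with known roles were picked out after their values had been seen. Of those that rose, PMEPCRF, a pectin methylesterase, had 197, 205.4 and 194 at day 5 and 123, 127 and 108 at day 3 (difference 0.67), HRGP1, a hydroxyproline-rich glycoprotein of the wall, stood at 0.64, and ARL, an ARGOS-like gene of organ growth, at 0.58. The formate dehydrogenase gene FDH rose by 0.57. Of those that fell, STOMAGEN, a peptide of the mesophyll that promotes stomata, had 41.2, 48.4 and 54.0 at day 5 and 78.6, 72.4 and 78.6 at day 3 (difference -0.54), and ALDH11A3, a non-phosphorylating glyceraldehyde phosphate dehydrogenase, stood at -0.53. TAPX, the thylakoid ascorbate peroxidase, fell by 0.34. Limma adjusted p for these 7 genes ran from 1.6e-08 to 0.011. The call of HRGP1 ended without day 3 replicate 1 or 2 or day 5 replicate 1 (adjusted p from 0.070 to 0.092), and that of ARL without day 3 replicate 1 (0.053).

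Of the 3 tested genes of waxes, cutin and lipid transfer, AT4G13840 (CER26), of wax synthesis, was called lower, beside 3.29% of all named loci. Its difference was -0.40 ± 0.07 (SE, n = 3 arrays each, limma adjusted p = 2.3e-04). AT3G23840 stood at -0.29 and the wax ester synthase WSD1 at -0.13, neither of them called.

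The same 2-day step was next set against that of the lines with mutant FLC, which share no array with it. In FRI flc-3 1425 probe sets were called (9.57%) and in flc-3 2414 (16.2%). Of the 692 probe sets called higher in FRI, 30.9% were also called higher in FRI flc-3, which is 31.8% of the 672 called higher there. Of the 611 called lower in FRI, 298 (48.8%) were also called lower in FRI flc-3, which is 39.6% of the 753 called lower there. Against flc-3 the shared calls were 229 of the 692 called higher (33.1%, and 18.9% of the 1213 in flc-3) and 340 of the 611 called lower (55.6%, and 28.3% of the 1201 in flc-3). Calls in opposite directions numbered 45 of the 692 and 3 of the 611 for FRI flc-3, and 50 and 7 for flc-3. As a background, the calls of the FRI flc-3 step made up 4.51% of all tested probe sets upward and 5.06% downward. Those of the flc-3 step made up 8.15% upward and 8.07% downward. Whether the opposite calls exceed these shares was not tested. With arrays scaled to a common 75th percentile, flc-3 had 870 higher and 1583 lower.

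The difference between the steps was tested as an interaction. Against FRI flc-3 303 probe sets were called (2.03%), 216 with the more positive step in FRI and 87 with the more negative. Against flc-3 629 were called (4.22%), 375 and 254, and with arrays scaled to a common 75th percentile 459 and 193. Without FRI day 5 replicate 1 the second count was 416, and without flc-3 day 5 replicate 2 it was 417. Of the 692 probe sets called higher in FRI the interaction was called in 138 against FRI flc-3 and in 186 against flc-3. Of the 611 called lower it was called in 24 and 49. Among the 24 loci named above, the interaction was called in 7 of the 12 that rose and 2 of the 12 that fell against FRI flc-3, and in 8 and 0 against flc-3. The 692, the 611 and the 24 were chosen by their FRI step, which is a part of the interaction. Their counts are therefore not independent of that choice and give no support for a difference between the lines.

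The largest positive interactions were those of BCAT4, which rose in FRI and fell in both other lines. BCAT4 averaged 288 at day 5 and 222.6 at day 3 in FRI. In FRI flc-3 it averaged 72.1 at day 5 and 262 at day 3, and in flc-3 142 at day 5 and 423 at day 3. The FRI step less that of FRI flc-3 was 2.01 ± 0.10 (SE, n = 3 arrays per group, limma adjusted p = 1.5e-15), and less that of flc-3 it was 1.82 ± 0.10 (adjusted p = 2.9e-14). AT1G65500 rose in FRI by 1.02 and fell by 0.48 in the FRI flc-3 line and by 0.59 in the flc-3 line. The interactions for AT1G65500 were 1.499 and 1.61. scpl31 rose in FRI and had a step of -0.73 in FRI flc-3, an interaction of 1.56. AT1G49310 and AT5G61660 followed at 1.46 and 1.504 against FRI flc-3. The FRI step of AT5G61660 alone, 0.49, lost its call without day 3 replicate 1 or 2 or day 5 replicate 1 or 2 (adjusted p from 0.069 to 0.13) or with 1 added in place of 16 (0.095), while its interaction kept the call under these settings.

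Against flc-3, AT4G17470 and AT2G25450 had interactions of 1.54 and 1.47, and neither was called between the days in FRI. AT4G17470 had 7.94 to 17.4 on the 6 FRI arrays, all below their 40th percentile. In flc-3 it averaged 5.86 at day 5 and 39.8 at day 3, so its interaction rests on the flc-3 arrays. In FRI flc-3 it averaged 24.6 at day 5 and 13.6 at day 3. The size of its interaction depends on the number added (3.00 with 1 and 0.64 with 64). AT2G25450 averaged 48.5 at day 5 and 59.0 at day 3 in FRI, and 25.5 at day 5 and 119 at day 3 in flc-3. At day 0 in FRI it had averaged 598. AT1G04660 stood at 1.32.

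The loci with the more negative step in FRI rose in 1 or both of the lines with mutant FLC, and rose by less or did not pass in FRI. AT3G28500 averaged 213.9 at day 5 and 129 at day 3 in FRI, 867 at day 5 and 238.2 at day 3 for FRI flc-3, and 768 at day 5 and 214.3 at day 3 for flc-3. Its interactions were -1.14 and -1.10. AT5G44630 was near the floor in FRI, with 10.7, 1.78 and 7.22 at day 5 and 3.76, 6.50 and 2.02 at day 3, and averaged 91.3 at day 5 and 25.1 at day 3 in FRI flc-3. The interactions of AT5G44630 were -1.23 and -1.53, and with 1 added in place of 16 neither was called (adjusted p = 0.46 and 0.15). AT5G03350 stood at -0.98 and -0.98, and its FRI step of -0.07 did not pass (adjusted p = 0.67).

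AT1G54020 rose in all 3 lines. The step was 1.14 in FRI, against 2.02 for FRI flc-3 plants and 1.70 for flc-3 plants, and the FRI step was smaller than that of FRI flc-3 by an interaction of -0.88. That call ended with 1 added in place of 16 (limma adjusted p = 0.071). AT3G29970 stood at -0.87 against FRI flc-3. Against flc-3, WSD1, a wax ester synthase, had -1.82 ± 0.19 (SE, adjusted p = 1.4e-08). WSD1 averaged 8.72 at day 5 and 11.4 at day 3 in FRI, and 95.2 at day 5 and 18.4 at day 3 in flc-3. AT4G00870 had signals under 1 on all 6 FRI arrays, where no step could be measured, and passed the filter through arrays of other groups. In flc-3 it averaged 19.5 at day 5 and 1.14 at day 3, so its interaction of -1.06 rests on the flc-3 arrays, and its size depends on the number added (-3.43 with 1 and -0.36 with 64).

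**Figure D5:**
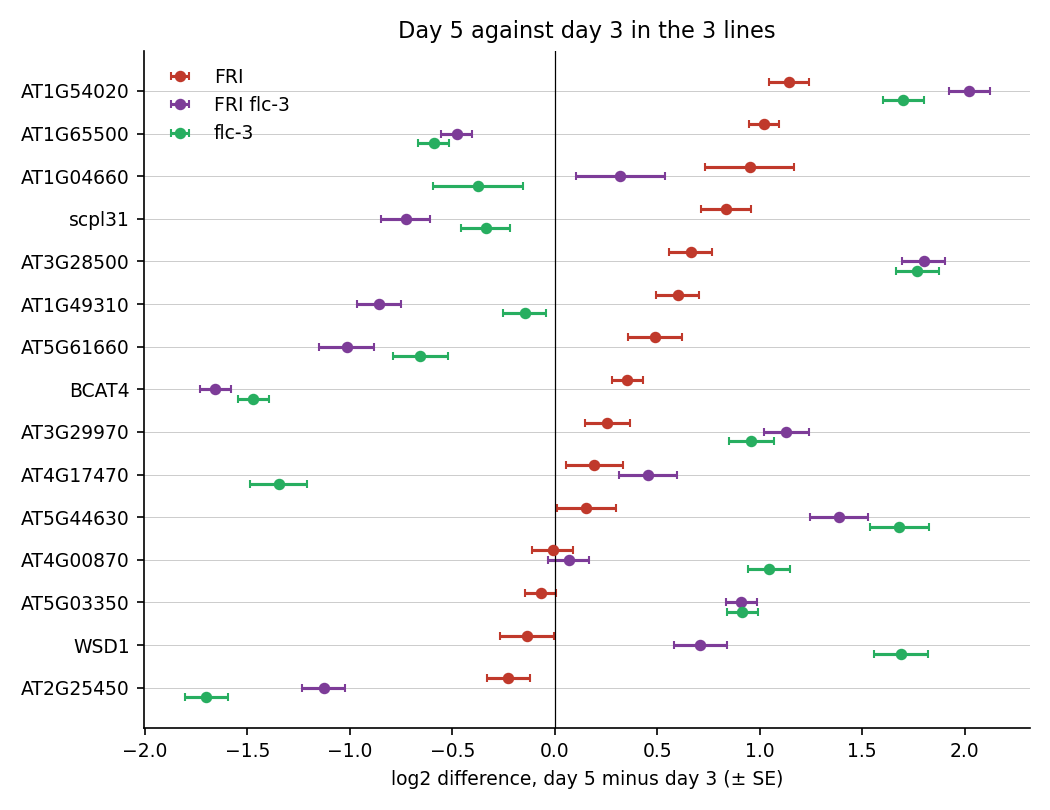
Log2 difference between day 5 and day 3 with SE (x axis) in FRI (red), FRI flc-3 (purple) and flc-3 (green) for the 15 loci named by the interactions (y axis). BCAT4, AT1G65500 and scpl31 lie right of 0 in FRI and left of it in both other lines, and AT3G28500 and AT1G54020 lie right of 0 in all 3.

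In the nuclear photosynthesis list the interaction was called in none of 12 against either line, with limma's unadjusted p under 0.05 in 3 against FRI flc-3 and 2 against flc-3, and the medians of the step were -0.23 for FRI, -0.11 for FRI flc-3 and -0.26 for flc-3. In tetrapyrrole synthesis the medians were -0.26, -0.29 and -0.28, with no interaction called against FRI flc-3 and 1 against flc-3. PYK10 fell in all 3 lines, with steps of -0.49 in FRI plants, -1.24 in FRI flc-3 plants and -1.50 in flc-3 plants, and the interactions of 0.75 and 1.02 were called (adjusted p = 5.9e-06 and 1.3e-08). BGLU45 rose in FRI by 0.78 and stood at -0.39 in FRI flc-3, an interaction of 1.18. In the nitrate and sulfate list the interaction was called in 4 of 10 members against FRI flc-3 and in 3 against flc-3, beside 2.03% and 4.22% of all probe sets. AT1G33440 was at 1.01 and 0.93, AT1G59740 (NPF4.3) at 0.66 and 0.69, and GTR2 at 0.68 against FRI flc-3, a call that ended without FRI day 5 replicate 2 (adjusted p = 0.055). Of the 14 serine carboxypeptidases, the list made after the values had been seen, it was called in 4 and 3, of the 7 jacalin-related lectins and PYK10 in 2 and 2, and of the 9 other beta-glucosidases in 2 and 3. DFR, whose FRI step was 0.02, had steps of -0.62 for FRI flc-3 and -0.81 for flc-3, and both interactions were called (adjusted p = 2.8e-05 and 2.7e-07). BGLU45, GTR2, AT1G33440 and AT1G59740 were named by the adjusted p of their FRI step, which is a part of the interaction. Their interactions are therefore not independent of that choice.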

How the data were processed

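RNA of the apical region was measured on 36 ATH1 arrays, 3 for each of 12 groups of line and day. The authors deposited 1 intensity per probe set, the MAS5 signal on a linear scale, per the submitters' processing notes, and MAS5 settings are not given in the sources used here. The trimmed mean, leaving out 2% at each end, was the same on all arrays to within rounding. The values were analysed as log2(signal + 16), with no further normalization. Probe sets above the 40th percentile of the own array on at least 3 of the 36 arrays were kept (14890 of 22810, controls left out). limma 3.58.1 in R 4.3.3 was fitted to 12 group means, with 24 residual degrees of freedom and an intensity trend in the prior, with Benjamini-Hochberg adjustment of p over all 14890 probe sets. The number of arrays limits the precision.

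GEO's platform annotation gave a single gene to 13513 probe sets, more than 1 to 503 and none here to 8730 others. RefSeq matched 13436 of the 13513. A locus with several probe sets was given by the one of highest mean signal over the 36 arrays. Named were the 12 called loci, and 2 unnamed probe sets, of largest difference in each direction without overlap between the days, the 5 called loci of largest interaction in each direction, and up to 4 members of smallest adjusted p per gene list, or all of a list of up to 8. PSAE-1, PORB, GTR1, APS3 and APS4 were named beyond this rule, after their values had been seen. The comparison, the members and the lists were chosen with earlier results of these data known. Lists of tetrapyrrole synthesis, carbon fixation, organelle gene expression, serine carboxypeptidases and CYP71B cytochromes were added after the values had been seen.

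On simulated data for day 5 against day 3, with 14890 probe sets, limma recovered 65 of 67 changes of 1.5-fold, 67 of 67 of 2-fold and 66 of 66 of 4-fold, with 4 false calls. The simulated noise was normal and independent, with the fitted spread, and no change under 1.5-fold was simulated. In the data 1162 of the 1303 called probe sets differed by under 1.5-fold, and the simulation says nothing of those. Same-numbered arrays of the 2 days did not deviate together (correlations of -0.069, -0.030 and -0.056), and replicate numbers were not used as pairs. These correlations cannot show whether same-numbered samples were handled together. Other offsets, scalings, filters, priors, fits to fewer arrays and leaving out each array were tried. A comparison of promoter motifs was not run.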

Additional observations from a re-analysis of the deposited data

Results flagged for a closer look

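For the loci below, the limma interaction test over all probe sets was called between the FRI step and that of a line with mutant FLC. These are the loci of largest interaction in each direction. Such a call can come from a change in the other line alone. BCAT4 had 2.01 against FRI flc-3 and 1.82 against flc-3 on the log2 scale, each the FRI difference less that of the other line. AT1G65500 had 1.499 against FRI flc-3 and 1.61 against flc-3. Against FRI flc-3, scpl31 had 1.56, AT5G61660 had 1.504 and AT1G49310 had 1.46. Against flc-3, AT4G17470 had 1.54, AT2G25450 had 1.47 and AT1G04660 had 1.32. Signals of AT4G17470 lay below the 40th percentile on all 6 FRI arrays, so its interaction rests on the flc-3 arrays.

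Negative interactions were found for AT5G44630, with -1.23 against FRI flc-3 and -1.53 against flc-3, for AT3G28500, with -1.14 and -1.10, and for AT5G03350, with -0.98 and -0.98. AT1G54020 had -0.88 and AT3G29970 had -0.87 against FRI flc-3, and the call of AT1G54020 ended with 1 added (limma adjusted p = 0.071). WSD1 had -1.82 and AT4G00870 had -1.06 against flc-3, the second with signals under 1 on all 6 FRI arrays. WSD1 was near the floor on these 6 arrays too, so its interaction rests on the flc-3 arrays. The arrays of FRI are shared by both comparisons, and the causes of these differences were not tested.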

How the results depend on the processing

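The count of probe sets called between day 5 and day 3 in FRI ran from 1181 to 1344 under other offsets, scalings, filters and priors. It was 1091 in a fit to the 12 FRI arrays and 887 in a fit to the 6 arrays compared. Leaving out each array gave 835 to 1217, with 835 without FRI day 3 replicate 1. The interaction against FRI flc-3 was called in 237 to 321 with single arrays left out, and that against flc-3 in 416 to 664, with 416 without FRI day 5 replicate 1 and 417 without flc-3 day 5 replicate 2. Leaving out each array gave 249 to 353 for FRI day 7 against day 5 (249 without FRI day 5 replicate 1), 1537 to 1647 for FRI day 3 against day 0, 1037 to 1181 for FRI flc-3 and 1718 to 2056 for flc-3. FRI day 7 against day 5 had 190 calls in a fit to its own 6 arrays. The other 115 alternatives for counts lay within 1.5 times the count given. With the replicate number as a block, FRI day 5 against day 3 had 1277 calls and the interactions 291 and 622, so no count moved by over 1.5 times. With arrays scaled to a common 75th percentile, the calls in FRI were 624 higher and 653 lower, against 692 and 611 as deposited. Of 78 calls of named genes in this comparison, 56 were kept under all alternatives tried and 22 were lost under at least 1, of which 13 only without 1 array or in a fit to fewer arrays. Under other processing, LAS was lost with quantile normalization (limma adjusted p = 0.052) and no filter (0.058), SBPASE with these (0.074 and 0.052) and with no trend (0.051), LSMT-L, CYP71B34 and PSAE-1 with no filter (0.059, 0.061 and 0.061), and JAL33, BGLU46, AT5G61660 and AT1G49310 with 1 added in place of 16 (0.056, 0.053, 0.095 and 0.073). AGL42 was lost in fits to the 6 arrays (0.10) and to the 12 FRI arrays (0.052). Lost in both of these fits were also LAS (limma adjusted p = 0.10 and 0.073), SBPASE (0.091 and 0.066), PSAN (0.088 and 0.061) and BGLU46 (0.089 and 0.052). The fit to the 6 arrays further lost JAL34 (0.057), BGLU40 (0.061), ATG8F (0.058) and CYP71B34 (0.07), and that to the 12 FRI arrays PSAE-1 (0.053). With 1 added, 7 called differences moved by over 1.5 times and stayed called: AT1G04660, AT2G35430, AT2G19970, AT1G70820, AT1G33811, CYP71B26 and AGL42. No result changed sign while called. The causes were not tested.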
